A study of Daphnia pulicaria with 8 samples.

Results

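Mitochondrial ribosomal proteins were examined in whole adult Daphnia pulicaria, a freshwater water flea, of a Red and a Pale phenotype. They were all genes whose deposited name contains "mitochondrial ribosomal protein", or "ribosomal protein" together with "mitochondrial". The rule found 116 of 33069 genes. By the S or L in the name, 63 belong to the small subunit and 50 to the large subunit. Another 3 have neither letter: VAR1 was counted with the small subunit, where the yeast protein of that name belongs, and the pair named ribosomal protein 63 with the large subunit, which gives 64 and 52. Of the 64 small subunit genes, 35 carry one and the same name, 28S ribosomal protein S35, and these are described apart from the other 29. The 116 genes carry 78 different protein names, 30 for the small and 48 for the large subunit, and the names L12, L13, L51 and 63 are each held by a pair of gene models.

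Mitochondrial ribosomes stand in the mitochondrial matrix and translate the few messages of the mitochondrial genome, which in animals are core subunits of the respiratory chain and ATP synthase. Their small subunit binds the message and holds the decoding site, and their large subunit joins amino acids into the chain. In animals their protein parts are encoded in the nucleus, made on cytosolic ribosomes and imported, so that one respiratory chain depends on both translation systems. Many of the proteins have bacterial counterparts, and others are found only in mitochondria.

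The study's title links hypoxia to metabolic phenotype, and its animals came from 4 lakes, Black, Doe, Long and Round. For every lake there was a single Red and a single Pale library, which makes 4 Red and 4 Pale libraries. Pools of 30 animals per lake were preserved and their RNA was depleted of ribosomal RNA, per the labels' protocols. The labels do not say whether the 30 animals were for each phenotype, nor do they give sex or an age beyond adult. Because no combination of lake and phenotype was repeated, p-values for Red against Pale set the mean difference against its variation between lakes. That error is estimated partly from all genes together, and it also holds variation between libraries, which cannot be separated from it. In the RNA of whole animals, a smaller share of cells that express a gene and less RNA of it per cell cannot be told apart.

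Values are FPKM, in which fragments are counted per kilobase of a transcript and relative to all fragments of a library, so that levels can be compared between genes. FPKM sums ran from 543804 to 582444 per library; the number of reads behind them is unknown. A single gene without a known name, Daplx7pEVm025448, took 41.0% to 48.1% of these sums, with the higher share in Red in all 4 lakes (46.7%, 48.1%, 47.0% and 45.2% in Red of Black, Doe, Long and Round, against 42.2%, 47.1%, 45.5% and 41.0% in Pale). Its part in the differences below was not tested. Values rescaled without it are given for several sums and medians. Medians by lake, differences between lakes and the directions of single genes within lakes are given in the deposited scaling only.

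Mitochondrial ribosomal protein genes were expressed at low and similar levels. Averaged over the 8 libraries, 76 of the 116 genes reached 1 FPKM, the limit for testing: 26 small subunit genes without the S35 name, 5 with it, and 45 large subunit genes. The 26 small subunit genes had mean levels from 1.49 to 17.7 FPKM with a median of 3.60 FPKM, and the 45 large subunit genes from 1.21 to 8.89 FPKM with a median of 3.76 FPKM. The median over all 12865 genes that passed was 4.23 FPKM. Proteins of the cytosolic ribosome had a median of 220 FPKM, leaving out 270 gene models that all carry the name 40S ribosomal protein S9 (80 tested, median 2.44 FPKM), and those of the respiratory chain and ATP synthase 21.8 FPKM.

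The 3 most abundant small subunit genes were S11, S15 and S31. S11 (Daplx7pEVm014950), whose bacterial counterpart lies on the platform of the small subunit, was the only tested member above 10 FPKM on average. S15 (Daplx7pEVm015732), the counterpart of a primary rRNA-binding protein, had 9.20, 4.46, 5.58 and 8.04 FPKM in Red of Black, Doe, Long and Round, and 9.64, 5.07, 7.78 and 7.79 FPKM in Pale. S31 (Daplx7pEVm012595), which has no bacterial counterpart, had 4.58 to 7.24 FPKM in Red and 5.45 to 6.83 FPKM in Pale. The 3 most abundant large subunit genes were L13, L23 and L12. L13 (Daplx7pEVm019211) had 5.75 to 12.11 FPKM in Red and 5.68 to 10.98 FPKM in Pale. L23 (Daplx7pEVm022364), whose counterpart sits at the exit of the polypeptide tunnel, had 5.50 to 9.85 FPKM in Red and 4.97 to 9.60 FPKM in Pale. L12 (Daplx7pEVm020170), a protein of the stalk that recruits translation factors, had 4.84 to 8.06 FPKM in Red and 6.86 to 9.95 FPKM in Pale. In all 5 of S15, S31, L13, L23 and L12 the ranges of the Red and Pale libraries overlapped.

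The 40 genes below a mean of 1 FPKM were 30 of the S35 name, 3 other small subunit genes (S16, S21 and S26) and 7 large subunit genes (L28, L43, L55, the pair named 63, and the second models of L13 and L51). Just outside the limit lay L43 at 0.815, an S35-named gene (Daplx7pEVm020293) at 0.914 and the second L51 model at 0.936 FPKM; just inside lay the S35-named genes Daplx7pEVm025628 at 1.07, Daplx7pEVm021897 at 1.17 and Daplx7pEVm019490 at 1.18 FPKM. S21 (Daplx7pEVm061297) had 1.82, 1.36, 0.42 and 0.00 FPKM in Red of Black, Doe, Long and Round, against 0.00, 0.00, 0.41 and 0.00 FPKM in Pale. S26 (Daplx7pEVm017641) had 0.72, 1.42, 0.00 and 1.00 FPKM in Red, against 0.43, 2.26, 0.00 and 0.50 FPKM in Pale. Both genes of the name 63 and L28 stayed below 0.5 FPKM in every library. A value listed at 0 here can be an unsampled or a failed estimate.

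In sum, neither the small subunit without the S35 name nor the large subunit separated Red from Pale. The 29 small subunit genes without the S35 name summed to 116.20, 106.85, 100.51 and 107.31 FPKM in Red of Black, Doe, Long and Round, against 121.20, 104.30, 100.54 and 124.39 FPKM in Pale. The means were 107.7 ± 6.45 FPKM in Red and 112.6 ± 11.9 FPKM in Pale (SD, n = 4 each), and the log2 ratio of Red over Pale averaged -0.06 ± 0.11 (SD over 4 lakes). The 52 large subunit genes summed to 169.09, 150.79, 195.15 and 192.38 FPKM in Red, against 176.06, 154.95, 180.78 and 196.40 FPKM in Pale. Their means were 176.9 ± 20.9 FPKM in Red and 177.0 ± 17.1 FPKM in Pale, with a log2 ratio of -0.004 ± 0.077. The sign of both ratios depended on the scaling: rescaled without the most abundant gene of the libraries, the small subunit ratio was 0.05 and the large subunit ratio 0.10. Directions within lakes changed too. As a share of the FPKM sum without that gene, the large subunit had 0.0583% in Red and 0.0538% in Pale of Black. In Round it had 0.0636% and 0.0571%. The small subunit turned higher in Red in Black and Long. The small subunit in Round and the large subunit in Doe stayed lower in Red. In the deposited scaling the small subunit ratio was 0.04 without S11, and -0.11 with the S35-named genes counted in.

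The ratio between the subunits was grouped by lake. The sum of the large subunit over that of the small subunit without S35 was 1.46, 1.41, 1.94 and 1.79 in Red of Black, Doe, Long and Round, and 1.45, 1.49, 1.80 and 1.58 in Pale. The 4 libraries of Long and Round were all above the 4 of Black and Doe. Red and Pale of Round differed, 1.79 against 1.58, and the lower of them lay near the 1.49 of Pale of Doe. The grouping was picked after its values were seen, and no test of the ratio was run.

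**Figure D1:**
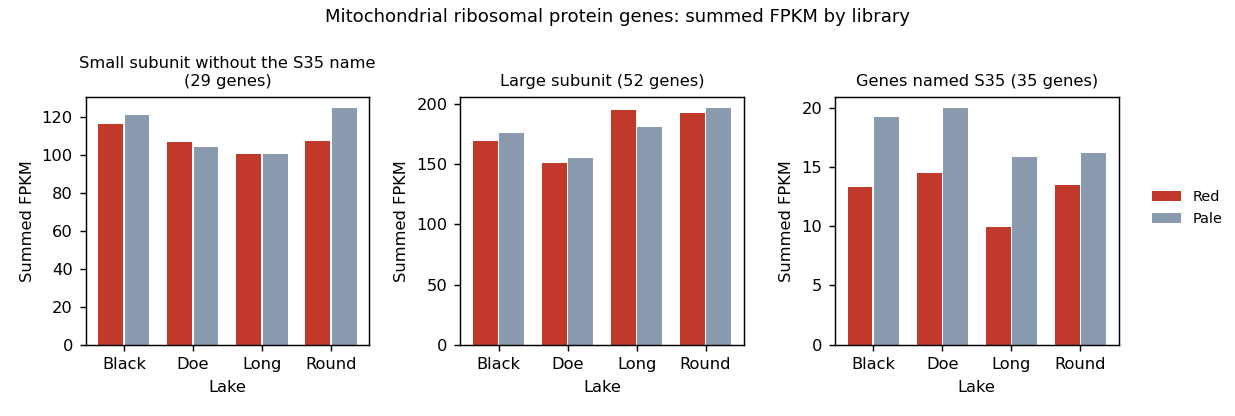
Summed FPKM (y axis) of mitochondrial ribosomal protein genes in each library, by lake (x axis), for the small subunit without the S35 name, the large subunit and the S35-named genes; each bar is 1 library, Red left of Pale. In the deposited scaling, large subunit sums lie between 150.79 and 196.40 FPKM and differ more between lakes than between the bars of a lake. The S35-named sum is lower in Red in all 4 lakes.

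The Red minus Pale difference of single genes was estimated as log2(FPKM + 1) with limma, with lake as a block, over all 12865 genes. None of the 76 members passed an adjusted p of 0.05, and none of all genes did (0%). At an unadjusted p under 0.05, 2 members were higher in Red, L30 and L10, and 2 were lower, S11 and S14. That is 2.63% of the 76 in each direction, where 2.89% of all genes were higher and 9.29% lower at the same limit. The split depended on single lakes: without the Round pair 5 of 77 members were higher and 1 lower (246 and 986 of 12761 genes in all), and without the Long pair 1 of 76 was higher and 4 lower (268 and 1032 of 12927 genes in all).

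The median member was 0.04 higher in Red on the log2(FPKM + 1) scale, with 44 members higher and 32 lower, while the median of all genes was -0.08, with 38.5% higher and 61.5% lower. The small subunit without S35 had 16 genes higher and 10 lower with a median of 0.04, and the large subunit 25 higher and 20 lower with a median of 0.06. This order depended on the assignment by name. With S18a and S30 counted with the large subunit, the medians were 0.05 for the small and 0.03 for the large subunit. Rescaling without the most abundant gene moved the median of all genes to 0.00, with 6475 higher and 6381 lower, and that of the members to 0.12, with 48 higher and 28 lower. Without the Doe pair the median of the members was -0.002, and without the Long pair -0.001; with a pair left out, the small subunit's median ran from -0.04 to 0.14 and the large subunit's from 0.01 to 0.06.

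By lake, the median Red minus Pale difference of the small subunit without S35 was 0.07 in Black and in Long, 0.13 in Doe and -0.12 in Round. That of the large subunit was 0.05, -0.13, 0.04 and 0.03 in Black, Doe, Long and Round. All genes had medians of -0.19, -0.02, -0.07 and -0.03 in the same order. In the deposited scaling the subunits thus had opposite signs in Doe and in Round, and the same sign in Black and in Long. Single members varied between lake pairs. The SD of a member's difference over the 4 lakes had a median of 0.43. It was 0.38 for all genes, 0.29 for the respiratory chain and 0.16 for the cytosolic ribosome without S9. Median levels ran the other way, at 3.46, 4.23, 21.8 and 220 FPKM in the same order. The part of level or of noise between libraries in this spread was not tested.

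**Figure D2:**
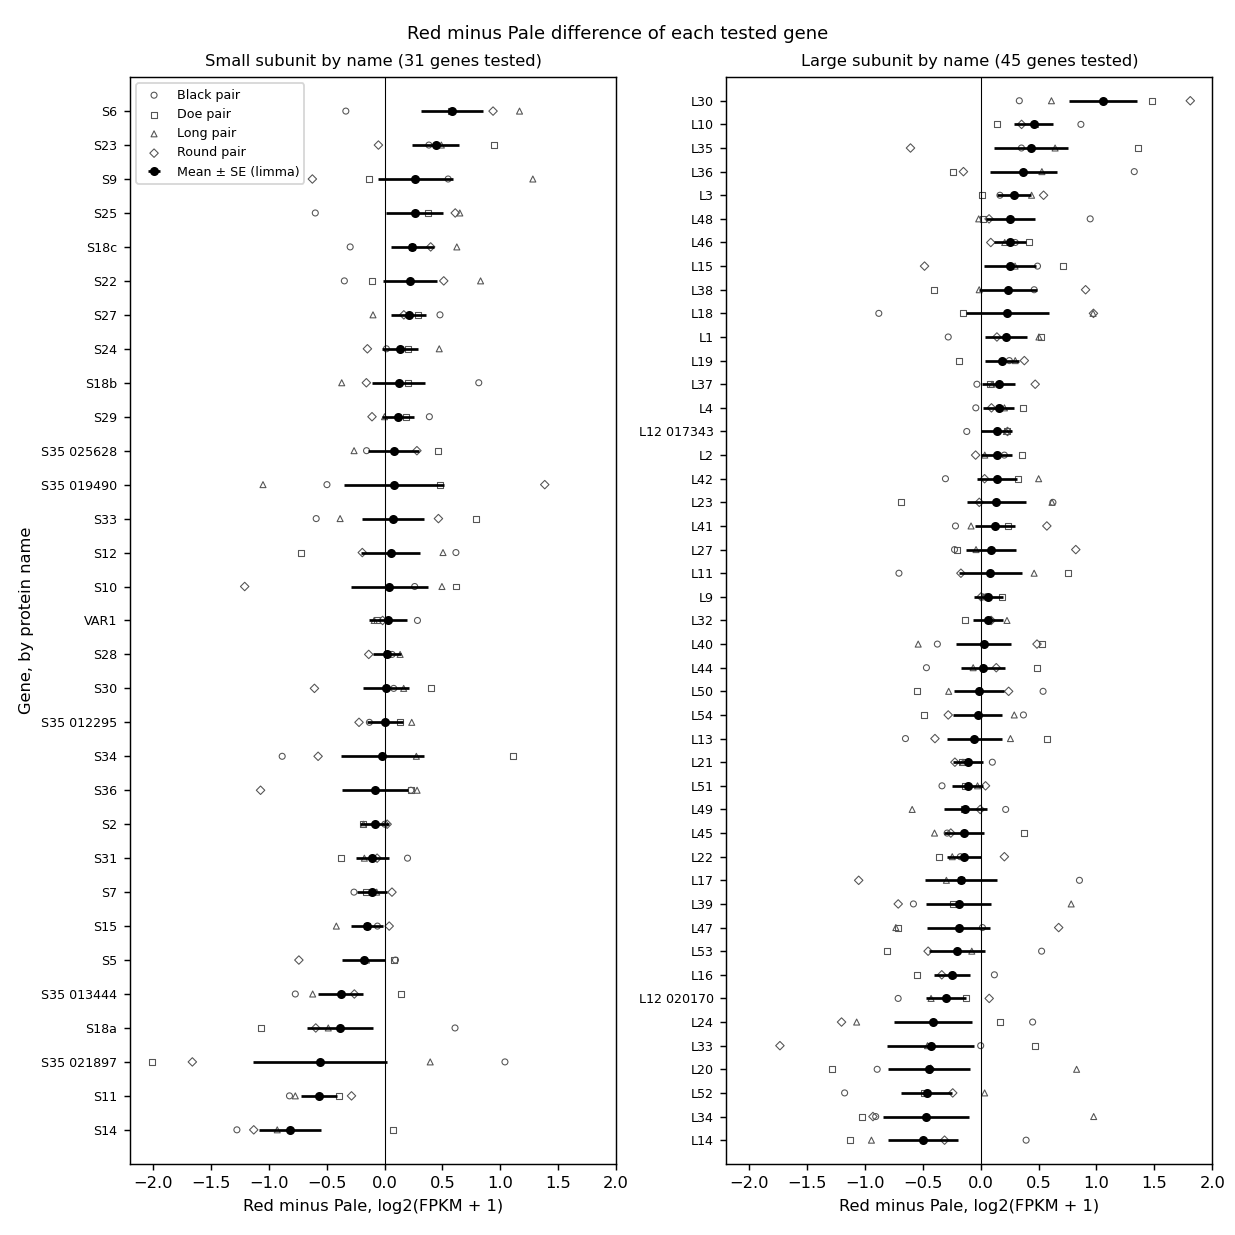
Red minus Pale difference in log2(FPKM + 1) (x axis) of each of the 76 tested genes (y axis, ordered by difference), small subunit left and large subunit right; filled points with bars are limma means ± SE and open symbols the 4 lake pairs. L30 at 1.06 and S14 at -0.81 are the extremes, and 44 of the 76 means lie right of 0.

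In the deposited scaling, 5 of the 76 members were higher in Red in all 4 lakes, which is 6.58% against 6.57% of all genes. All 5 belong to the large subunit: L30, L10, L3, L46 and L9. Just 1 member, S11, was lower in Red in all 4 lakes, 1.32% against 14.6% of all genes. These counts, and the subunit of the genes in them, can change when values are rescaled without the most abundant gene of the libraries.

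L30 (Daplx7pEVm018979), the counterpart of a small bacterial large subunit protein, had 4.28, 1.79, 2.33 and 3.77 FPKM in Red of Black, Doe, Long and Round, against 3.19, 0.00, 1.18 and 0.36 FPKM in Pale. Red was higher in each lake, yet the Pale library of Black exceeded the Red libraries of Doe and Long. The difference was 1.06 ± 0.29 (SE), with a limma p of 0.012 and an adjusted p of 0.315. At these low values its size depended on the pseudocount, with 2.16 at a pseudocount of 0.1 and 0.39 at 5.

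L10 (Daplx7pEVm016636), which in bacteria anchors the stalk, had 3.30, 2.50, 3.75 and 4.02 FPKM in Red, against 1.36, 2.18, 2.42 and 2.93 FPKM in Pale. The lowest Red library, Doe, lay below the highest Pale library, Round. The difference was 0.46 ± 0.17 (SE) and the adjusted p from limma was 0.377. Of the pair of models for its stalk partner L12, Daplx7pEVm020170 differed by -0.30 ± 0.17 and Daplx7pEVm017343 by 0.14 ± 0.13, with adjusted p of 0.539 and 0.703 in limma.

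In the deposited scaling, L3 and L46 were the only tested members whose Red libraries all lay above all Pale libraries, where 1.62% of all genes did so. L3 (Daplx7pEVm011976), whose bacterial counterpart is an early-assembling protein close to the peptidyl transferase centre, had 4.24, 4.09, 4.94 and 6.30 FPKM in Red, against 3.67, 4.05, 3.38 and 4.01 FPKM in Pale. L46 (Daplx7pEVm014119), a protein of mitochondrial ribosomes, had 2.69, 2.65, 3.03 and 2.58 FPKM in Red, against 2.0, 1.73, 2.49 and 2.37 FPKM in Pale. The gaps were narrow, 4.09 against 4.05 FPKM for L3 and 2.58 against 2.49 FPKM for L46. The differences were 0.29 ± 0.15 and 0.25 ± 0.14 (SE), with adjusted p of 0.491 and 0.514 in limma. L9 (Daplx7pEVm016402) differed by 0.06 ± 0.12.

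The members that went against the rest were those lower in Red in at least 3 lakes, while the median member was higher. There were 23 of them, chosen by these same values, and the 12 with the largest differences were S14, S11, L14, L34, L52, L20, S18a, an S35-named gene, L12, L16, L53 and L39. As they were picked by direction, their direction is no support for a change. The share of all genes lower in Red in at least 3 lakes was not counted, so whether 23 is few or many is not known. By the mean difference, another criterion, 61.5% of all genes and 42.1% of the members were lower in Red. The members' median that set the direction was 0.04, and it was -0.002 without the Doe pair and -0.001 without the Long pair.

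S11 stood apart by its level and its consistency. It had 12.19, 15.15, 11.92 and 17.44 FPKM in Red of Black, Doe, Long and Round, against 22.30, 20.24, 21.04 and 21.47 FPKM in Pale. Every Red library lay below every Pale library, as in 4.45% of all genes. Means were 14.2 ± 2.62 FPKM in Red and 21.3 ± 0.86 FPKM in Pale (SD, n = 4 each), so the Pale libraries were close together and the Red libraries spread. The difference was -0.57 ± 0.16 (SE), with a limma p of 0.012 and an adjusted p of 0.315. Its 2 leading isoforms showed the same order: isoform t5 had 7.05, 7.44, 6.35 and 8.97 FPKM in Red against 12.12, 10.46, 10.33 and 11.64 FPKM in Pale. Isoform t2 had 4.47, 4.80, 3.86 and 5.51 FPKM in Red against 8.65, 6.60, 9.08 and 8.12 FPKM in Pale.

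S14 (Daplx7pEVm022794), whose bacterial counterpart lies in the head of the small subunit, had 0.00, 3.92, 1.42 and 0.33 FPKM in Red, against 1.42, 3.68, 3.60 and 1.91 FPKM in Pale. It was lower in Red in Black, Long and Round and slightly higher in Doe, the lake with its highest levels. The difference was -0.81 ± 0.27 (SE) with an adjusted p of 0.359 in limma. It was -1.84 at a pseudocount of 0.1 and -0.28 at 5.

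**Figure D3:**
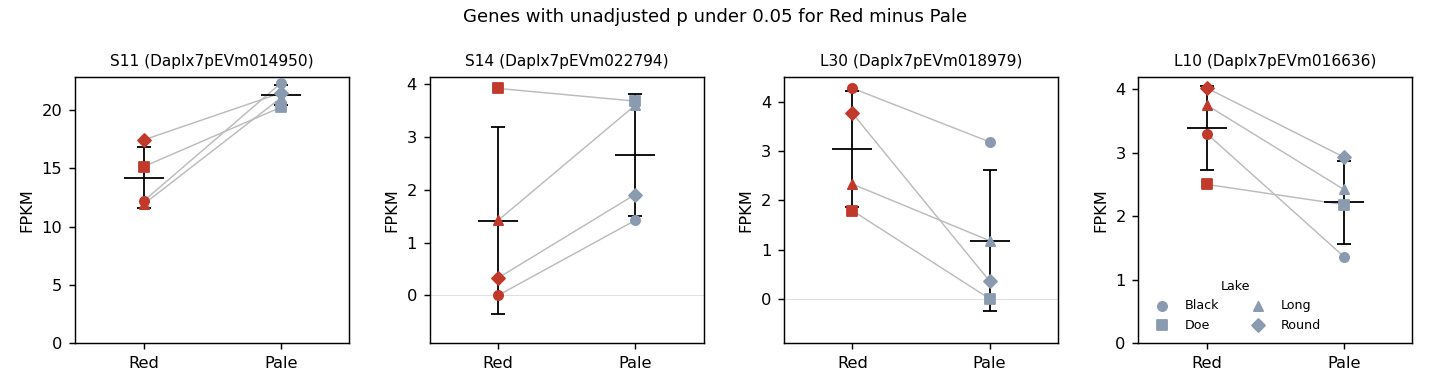
FPKM (y axis) of S11, S14, L30 and L10 in Red and Pale libraries (x axis); symbols are lakes, grey lines join the libraries of a lake, and horizontal marks with bars are means ± SD (n = 4). For S11 all Red points, at most 17.44 FPKM, lie below all Pale points, at least 20.24 FPKM; in the other 3 panels the groups overlap.

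Among the other 10 members that went against the rest, 7 belong to the large subunit by name with differences from -0.50 to -0.19, besides L12. L14 (Daplx7pEVm018879) had 1.52, 0.10, 0.96 and 0.78 FPKM in Red, against 0.92, 1.41, 2.77 and 1.21 FPKM in Pale. L20 (Daplx7pEVm022408), whose bacterial counterpart is needed early in assembly, had 4.09, 3.93, 8.27 and 5.21 FPKM in Red, against 8.46, 11.04, 4.22 and 7.38 FPKM in Pale. L34 (Daplx7pEVm026297) had 2.12, 1.33, 2.58 and 3.58 FPKM in Red, against 4.85, 3.73, 0.82 and 7.73 FPKM in Pale. L20 and L34 shared their exception, Long, where Red was the higher library. L52 (Daplx7pEVm023499) had 1.67, 1.57, 4.57 and 3.28 FPKM in Red, against 5.03, 2.60, 4.44 and 4.06 FPKM in Pale, and was close to equal in Long. L16 (Daplx7pEVm017503) differed by -0.25, L53 (Daplx7pEVm022305) by -0.20 and L39 (Daplx7pEVm017055) by -0.19, each with overlapping groups. S18a (Daplx7pEVm020166), which despite its name is placed in the large subunit of mammalian mitochondrial ribosomes, differed by -0.38 ± 0.28. Adjusted p in limma was 0.470 for L52 and at least 0.497 for the other 9. Single lakes weighed heavily: without the Doe pair L53 differed by -0.002, L20 by -0.17, S18a by -0.16, L14 by -0.29, L34 by -0.29 and L16 by -0.15. Without the Black pair L52 differed by -0.23, L39 by -0.06, L12 by -0.16 and the S35-named gene by -0.25, and L53, S18a and L14 by -0.45, -0.71 and -0.80. Without the Long pair L20 differed by -0.87, L34 by -0.95 and L39 by -0.51, and without the Round pair L39 differed by -0.01, L34 by -0.32 and L53 by -0.12.

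Differences between lakes did not pass the threshold either. In an F test over the lake terms in limma, 0% of all genes passed an adjusted p of 0.05, and 6 members had an unadjusted p under 0.05, where 9.9% of all genes did. Of these 6, S2, S24, S14, S15 and S23 belong to the small subunit and L44 to the large subunit. S2 (Daplx7pEVm016789), the counterpart of a bacterial protein between head and body of the small subunit, had 4.46, 3.30, 1.68 and 3.48 FPKM in Red of Black, Doe, Long and Round, and 4.45, 3.88, 2.04 and 3.41 FPKM in Pale. Both Long libraries were the lowest, and Red and Pale of a lake were close. Long minus the mean of the other 3 lakes was -0.75 ± 0.15 (SE), with an adjusted p of 0.401 in limma. S24 (Daplx7pEVm021257), a protein of the mitochondrial small subunit, was also lowest in both Long libraries, 2.40 FPKM in Red and 1.45 FPKM in Pale, with a difference of -0.82 ± 0.18 and an adjusted p of 0.409. S15 was lowest in Doe, at -0.63 ± 0.16 with an adjusted p of 0.344. L44 (Daplx7pEVm012254) was lowest in Doe too, with 2.27 FPKM in Red and 1.34 FPKM in Pale, and its difference was -0.80 ± 0.22 with an adjusted p of 0.346. S23 (Daplx7pEVm020073) had 1.69 FPKM in Red and 0.40 FPKM in Pale of Doe, and differed there by -0.87.

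Against the mean of the other 3 lakes, 34 of 45 large subunit genes were lower in Doe with a median of -0.24, where 60.6% of all genes were lower with a median of -0.08. In Round, 34 of 45 were higher with a median of 0.18, where 66.9% of all genes were higher with a median of 0.12. In Long, 29 of 45 large subunit genes were higher with a median of 0.16, where 44.1% of all genes were higher. The small subunit without S35 had 17 of 26 lower in Long with a median of -0.10, where 55.9% of all genes were lower with a median of -0.04. In Black the small subunit had a median of 0.16 and the large subunit -0.05. No member passed an adjusted p of 0.05 in limma in any lake, where 0.0311% of all genes passed as higher and 0.00777% as lower in Black, and 0% in Doe, Long and Round. At an unadjusted p under 0.05, 8 members were lower in Doe and 2 higher, where 6.85% and 3.33% of all genes were. In Black 4 members were higher and 1 lower, where 4.97% and 4.03% of all genes were. In Long 3 were higher and 5 lower, where 2.71% and 4.99% were, and in Round 1 was higher and 1 lower, where 5.8% and 2.5% were.

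The 35 gene models named S35 were the part of the small subunit that differed most by phenotype in sum, a comparison picked after its values were seen. S35 is a mitochondrial small subunit protein; whether all 35 models code for it was not tested, and 12 of their 87 isoforms are named uncharacterized in the deposited isoform table. They summed to 13.27, 14.46, 9.93 and 13.49 FPKM in Red of Black, Doe, Long and Round, against 19.20, 19.93, 15.81 and 16.19 FPKM in Pale. The highest Red sum, 14.46 FPKM, lay below the lowest Pale sum, 15.81 FPKM. This gap did not hold in other settings, although the sum stayed lower in Red in each lake. As a share of the FPKM sum without the most abundant gene of the libraries, Red of Doe had 0.00504%, above the 0.00471% of Pale of Round. Without the model Daplx7pEVm062797, Pale of Black summed to 14.29 FPKM, below Red of Doe. Means were 12.8 ± 1.97 FPKM in Red and 17.8 ± 2.09 FPKM in Pale (SD, n = 4 each), and the log2 ratio averaged -0.48 ± 0.17 (SD over 4 lakes), a ratio of 0.716. Over the settings tried it stayed between -0.56 and -0.37.

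The sum is made of many small values. Of the 35 models, 20 had a lower mean in Red, 13 a higher mean and 2 were listed at 0 in every library, and only 6 were above 0 in all 8 libraries. Without the limit of 1 FPKM, 20 of 33 models above 0 in any library were lower in Red on the log2(FPKM + 1) scale. Of all genes, 15439 of 27213 were lower in the same setting. By itself the count of 20 does not set these models apart. Daplx7pEVm062797 had 4.91 FPKM in the Pale library of Black and was listed at 0 in the other 7 libraries. The 5 models that passed the limit had differences of -0.56, -0.38, 0.00, 0.08 and 0.08. Of these, Daplx7pEVm013444 had 1.55, 2.25, 2.20 and 2.74 FPKM in Red, against 3.35, 1.94, 3.92 and 3.48 FPKM in Pale, with an adjusted p of 0.497 in limma. If models of the same name share sequence, which was not tested, reads could be split differently between libraries, so single models are uncertain.

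The deposited isoform table gives 342 isoforms of the members, and 71 tested members have at least 2. The leading isoform differed between Red and Pale in at least 3 lakes in 6 of the 71, L9, L34, S2, S12, L48 and L38, which is 8.45% against 20.2% of all genes with several isoforms. In S12 alone of the 71, 1 isoform led in all 4 Red libraries and another in 3 or more Pale libraries, a criterion chosen after its values were seen, which 0.655% of all such genes met (1.41% of the members). S12, whose bacterial counterpart lies at the decoding centre and whose Drosophila gene is technical knockout, is Daplx7pEVm019099. Its isoform t2 had 6.13, 3.14, 4.72 and 3.71 FPKM in Red of Black, Doe, Long and Round, against 1.55, 0.00, 0.00 and 4.38 FPKM in Pale. Isoform t1 was listed at 0 in all 4 Red libraries and had 2.10, 5.81, 3.03 and 0.00 FPKM in Pale. Round did not share this pattern. The gene as a whole did not separate the groups, with 4.43 ± 1.31 FPKM in Red and 4.22 ± 1.20 FPKM in Pale (SD, n = 4 each) and a difference of 0.05.

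**Figure D4:**
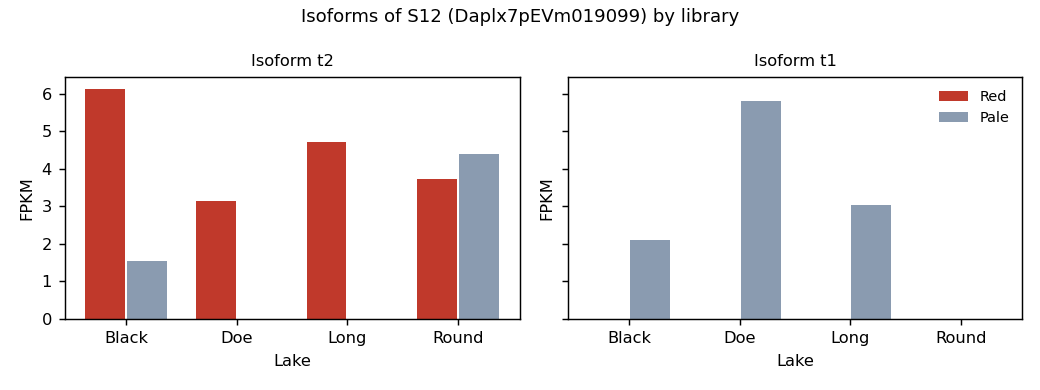
FPKM (y axis) of the S12 isoforms t2 (left) and t1 (right) by lake (x axis); each bar is 1 library, Red left of Pale, and a missing bar is a value listed at 0. Isoform t1 appears in Pale libraries of Black, Doe and Long alone, where t2 is at most 1.55 FPKM.

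No other list of mitochondrial translation had a gene past the adjusted threshold. Of 10 mitochondrial translation factors, 4 were higher and 6 lower in Red, with a median difference of -0.01 (0.07 when rescaled without the most abundant gene of the libraries) and 0 genes at an unadjusted p under 0.05. Elongation factor G (Daplx7pEVm004256), which moves the ribosome along the message, had 3.76, 3.46, 3.81 and 3.46 FPKM in Red, against 3.46, 2.45, 2.62 and 2.66 FPKM in Pale, a difference of 0.29 with an adjusted p of 0.445 in limma. The release factor C12orf65 (Daplx7pEVm018326), known from human cells for rescuing stalled ribosomes, differed by -0.35. Of 10 tested mitochondrial aminoacyl-tRNA synthetases (16 in all), which charge tRNAs, 5 were higher and 5 lower, with a median of 0.05, and 8 were higher and 2 lower when rescaled. Of 12 tested ribosome assembly genes (18 in all), 4 were higher and 8 lower with a median of -0.02, but 8 were higher and 4 lower when rescaled in the same way. Among them dimethyladenosine transferase 1 (Daplx7pEVm014135), which in mammals methylates the rRNA of the small subunit, had 12.33, 11.34, 12.33 and 13.07 FPKM in Red, against 17.76, 14.59, 18.43 and 17.69 FPKM in Pale. Its Red libraries all lay below its Pale libraries, as in S11, and the difference was -0.45 ± 0.13 (SE) with an adjusted p of 0.320 in limma.

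Of 5 tested genes (9 in all) for mitochondrial transcription and genome maintenance, 0 were higher and 5 lower with a median of -0.05, but 3 were higher and 2 lower when rescaled without the most abundant gene of the libraries. Of 20 tested import genes (23 in all), 8 were higher and 12 lower with a median of -0.02, but 12 were higher and 8 lower when rescaled. TIM16 (Daplx7pEVm022571), a subunit of the import motor, had 2.45, 2.17, 3.94 and 2.04 FPKM in Red, against 1.24, 0.58, 1.56 and 1.37 FPKM in Pale, a difference of 0.73 with an adjusted p of 0.287 in limma. Tim17-B (Daplx7pEVm021278) and Tim22 (Daplx7pEVm017824) are channel subunits of the inner membrane translocases. In the deposited scaling both were lower in Red in all 4 lakes, as were 14.6% of all genes. The gaps in Black were narrow, 18.45 against 19.14 FPKM for Tim17-B and 2.09 against 2.11 FPKM for Tim22, and rescaling can turn them. Tim17-B averaged 14.6 ± 3.07 FPKM in Red and 18.8 ± 1.65 FPKM in Pale (SD, n = 4 each), a difference of -0.36 with an adjusted p of 0.409 in limma. Tim22 averaged 1.995 ± 0.57 FPKM in Red and 3.02 ± 0.99 FPKM in Pale, a difference of -0.41 with an adjusted p of 0.506 in limma.

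Of the 81 respiratory chain and ATP synthase genes, 66 were lower in Red and 15 higher with a median of -0.17. That is 81.5% lower, where 61.5% of all genes were. At an unadjusted p under 0.05 in limma, 12 were lower, which is 14.8% against 9.29% of all genes. Rescaled without the most abundant gene of the libraries, 50 were lower and 31 higher with a median of -0.08. Then 7 were lower at that p, where 718 of 12856 genes in all were. With size factors 52 were lower and 29 higher, with a median of -0.09, and with quantile normalization 39 were lower and 42 higher, with a median of 0.01. It includes 3 vacuolar ATP synthase genes. Succinate dehydrogenase flavoprotein subunit (Daplx7pEVm004881), a nuclear-encoded enzyme of the citric acid cycle and chain, had 29.24, 27.72, 31.56 and 42.06 FPKM in Red, against 62.94, 43.84, 62.41 and 62.00 FPKM in Pale, with an adjusted p of 0.271 in limma. The 81 cytosolic ribosomal protein genes without the S9 name had 61 lower and 20 higher with a median of -0.11, and 40 lower and 41 higher when rescaled without the most abundant gene of the libraries. The 80 tested genes of the S9 name had 21 lower and 59 higher with a median of 0.15. In the deposited scaling the medians of the respiratory chain and of the cytosolic ribosome without S9 lay below that of all genes, -0.08, and the members' median above it. No test was run between the lists.

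**Figure D5:**
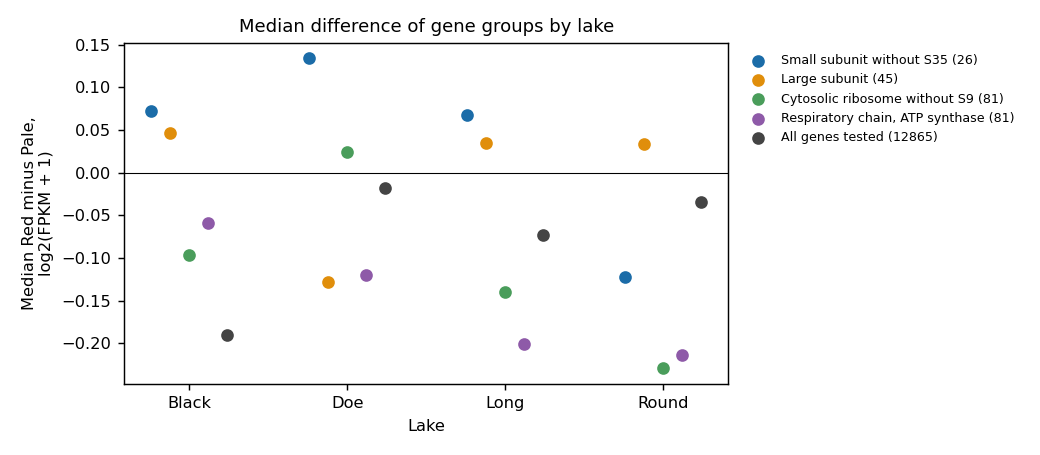
Median Red minus Pale difference in log2(FPKM + 1) (y axis) in each lake (x axis) for the small and large mitochondrial subunits, the cytosolic ribosome without S9-named genes, the respiratory chain and all tested genes, with the number of genes in the legend. The respiratory chain lies below 0 in all 4 lakes in the deposited scaling, whereas the subunits lie between -0.13 and 0.13.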

How the data were processed

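Whole adults were pooled and total RNA was rRNA-depleted for directional libraries, per the labels' protocols. Trimmomatic is named in the submitters' processing notes; the aligner, quantification tool and genome build are not given in the sources used here. The authors deposited FPKM per gene and per isoform, with 2 decimals; no counts or read depths were used, so the precision of single values is unknown. The identifiers matched no entry of the RefSeq table, so no coordinates are given.

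The 12865 of 33069 genes that averaged 1 FPKM or more were tested on log2(FPKM + 1), which understates changes of low genes, with limma 3.58.1 in R 4.3.3 (mean-variance trend, two-sided, Benjamini-Hochberg over all genes, threshold 0.05) with lake as a block. The procedure was run on simulated data with added changes larger than nearly all differences of the members. That run does not show whether differences of the members' size could be called. The members and lists were chosen with earlier results of these data known. Named were members of one sign in 4 lakes with the smallest p, those against the rest and the 3 most abundant per subunit. Also named were the 5 smallest lake p, those below 1 FPKM, those whose leading isoform differed, and up to 3 genes per other list. The S35-named sum, the S12 isoforms and the grouping of the subunit ratio by lake were picked from their values.

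Lake pairs Red with Pale by design. As a check of this pairing, each library's deviation from the mean of its phenotype was compared between Red and Pale of the lake, with correlations over genes of 0.485 (Black), -0.015 (Doe), -0.021 (Long) and 0.214 (Round). Alternatives were no lake block, other pseudocounts, filters and scalings, each lake pair left out, and other ways of counting genes by subunit.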

Additional observations from a re-analysis of the deposited data

Results flagged for a closer look

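There were 2 values that stood far from the other 3 libraries of their phenotype. L9 (Daplx7pEVm016402) had 3.44 FPKM in the Pale library of Long, against 2.65 to 2.78 FPKM in the other Pale libraries. L39 (Daplx7pEVm017055) had 3.04 FPKM in the Red library of Long, against 1.36 to 1.60 FPKM in the other Red libraries. The gap to the nearest library was 0.835 and 0.857 of the range. 58 groups of 4 libraries were examined, and chance alone marks about 1 in 20 of such groups.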

How the results depend on the processing

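No member passed the adjusted threshold under any alternative run, and the lowest adjusted p of a named member was 0.22. Of 26 named members, 20 kept their sign throughout. Many of the 26 were named for a direction shared by 3 or 4 lakes, so this count is no measure of robustness. Those that reversed, L13, L23, L44, S12, S2 and S31, were all named for other reasons. The count of members at an unadjusted p under 0.05, 4 as reported, was also 4 without the lake block, 1 with a mean of at least 5 FPKM, 7 with size factors (5 higher and 2 lower in Red, where 647 and 854 of all genes were), 8 with quantile normalization (6 and 2, where 800 and 676 were) and 5 to 6 with a lake pair left out. The median of all members was 0.11 with size factors, 0.13 with quantile normalization and 0.12 rescaled without the most abundant gene; that of the large subunit was 0.15 with quantile normalization and that of the small subunit -0.10 with a mean of at least 5 FPKM. These scalings moved the median of all genes by about as much, to -0.01, 0.02 and 0.00. The summed large subunit had log2 ratios of 0.0897 with size factors and 0.10 rescaled. With a mean of at least 5 FPKM, 0 of 15 members had a leading isoform that differed in 3 lakes, where 14.3% of all genes did. Signs reversed for S31 and S2 with quantile normalization (0.00229 and 0.000206), L44 with a pseudocount of 5 (-0.00311) and L13 with size factors (0.0311), quantile normalization (0.0829) and rescaling (0.0440). With a lake pair left out, L13 ran from -0.26 to 0.14, L23 from -0.0285 to 0.41, L44 from -0.13 to 0.18 and S12 from -0.13 to 0.31. The cause was not tested. Without the 3 members whose names give no subunit, the median of all members was 0.04; no member was named as like a ribosomal protein, so that alternative was not run.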
